A study of Mus musculus with 8 samples.

Results

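Ceacam1, Ceacam2 and Ceacam20 are 3 members of the CEACAM family of cell adhesion genes, chosen by their symbols from the 13028 genes listed in the crypt table, the villus table or both. All 3 were found in each table. Ceacam2 was put forward because of its values in the crypts, where it stood high in 1 Ctrl library, and Ceacam1 was set beside it as its closest relative. Bulk RNA-seq covered small intestinal crypts and villi of C57BL/6 mice, with 2 libraries per genotype and tissue, taken 1 month after tamoxifen (100 mg/kg on 5 days). In Gli1-PtgscKO mice, Cre driven by Gli1 (Gli1-CreERT2) deletes 2 prostaglandin synthase genes, Ptgs1 (COX1) and Ptgs2 (COX2), in mesenchymal cells that express Gli1, and not in the epithelium that was collected. The sample labels give the Ctrl mice as wild type for the deleted genes, with Gli1-CreERT2 and a Rosa26-tdTomato reporter, whereas the study's figure legends give mice with both floxed genes and no Cre. The methods call the replicates biological, and neither they nor the labels say whether a library came from 1 mouse or several, or give the animals' age.

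CEACAM proteins belong to the immunoglobulin superfamily. Their outermost domain resembles an antibody variable domain and binds CEACAM proteins on neighbouring cells, and further constant-type domains carry it away from the membrane. CEACAM1 sits on epithelium, endothelium and leukocytes, and its long cytoplasmic tail holds inhibitory tyrosine motifs that recruit the phosphatases SHP-1 and SHP-2. CEACAM2 is a mouse protein of the same layout, and CEACAM20 is a microvillus protein of intestinal epithelium whose tail is phosphorylated by Src and bound by the kinase Syk.

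Values are normalized counts, that is, reads on a gene over a DESeq2 size factor of the library, and each value was a whole number of reads times a constant of its library. The crypt libraries held 16853017 to 21121714 reads on listed genes and the villus libraries 13477600 to 15751024. Both Ctrl villus columns held the same value for all 12701 genes and were counted as 1 library, which leaves 7 distinct libraries. Enterocyte markers (12 of 12 listed) summed to 29997 to 37573 RPM (reads scaled to a common library total) in the villi and 5843 to 8620 in the crypts, and stem cell markers (8 of 8) to 181 to 427 and 4975 to 5654. Ptgs1, which the deletion targets, overlapped between the genotypes, at 365.5 and 163.8 in Ctrl and 178.4 and 198.9 in Gli1-PtgscKO crypt replicates 1 and 2, and Ptgs2 and Gli1 were not listed.

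Of 28 annotated Ceacam and Psg genes, all on chromosome 7, 5 were listed in each table, namely the 3 members, Ceacam10 and Ceacam18, and none was a Psg gene. Ceacam1 (ENSMUSG00000074272) lies at chr7:25461707-25477603 and Ceacam2 (ENSMUSG00000054385) at chr7:25516042-25539857, both on the minus strand of GRCm38 (mm10) and 38438 bases apart. Ceacam20 (ENSMUSG00000070777) lies 5.47 megabases away at chr7:19965412-19991104 on the plus strand.

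How far the reads of Ceacam1 and Ceacam2 could be told apart was read from the annotated transcripts. The 9 exons of transcript Ceacam1-203 and of Ceacam2-201 pair one to one, with 1566 and 1563 coding bases, stop codon included, and 90.3% identity. Identity was uneven along the coding sequence. It was lowest in exon 2, which encodes the variable-type domain, with 279 of 360 bases identical (77.5%). It was 86.6% in exon 5 and 79.3% in exon 6, 97.9% in exon 3, and 100% in exon 4 and in the coding parts of exons 7, 8 and 9, which encode the cytoplasmic tail.

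The first 120 coding bases of exon 2 show where the genes differ, in sense direction, with capitals at the 27 bases that are not the same in both. The Ceacam1 stretch is chr7:25476584-25476703 and the Ceacam2 stretch chr7:25538814-25538933, both on the minus strand.
Ceacam1: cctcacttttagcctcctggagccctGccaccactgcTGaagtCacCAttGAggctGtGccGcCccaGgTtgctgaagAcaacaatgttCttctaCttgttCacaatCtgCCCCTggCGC
Ceacam2: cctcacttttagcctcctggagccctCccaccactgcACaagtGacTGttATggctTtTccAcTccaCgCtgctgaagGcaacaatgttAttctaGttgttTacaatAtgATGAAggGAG

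Exon 4, which encodes a constant-type domain, shows where a single read cannot tell them apart. Its 255 bases are the same at chr7:25473798-25474052 (Ceacam1) and chr7:25529750-25530004 (Ceacam2), both on the minus strand, so a read inside it, taken without its mate, has 2 equal places.
Ceacam1 and Ceacam2: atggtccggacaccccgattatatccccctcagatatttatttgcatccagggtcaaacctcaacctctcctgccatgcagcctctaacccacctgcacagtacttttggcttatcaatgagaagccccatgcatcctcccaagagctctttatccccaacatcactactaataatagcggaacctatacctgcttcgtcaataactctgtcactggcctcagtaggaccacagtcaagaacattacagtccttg

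**Figure D1:**
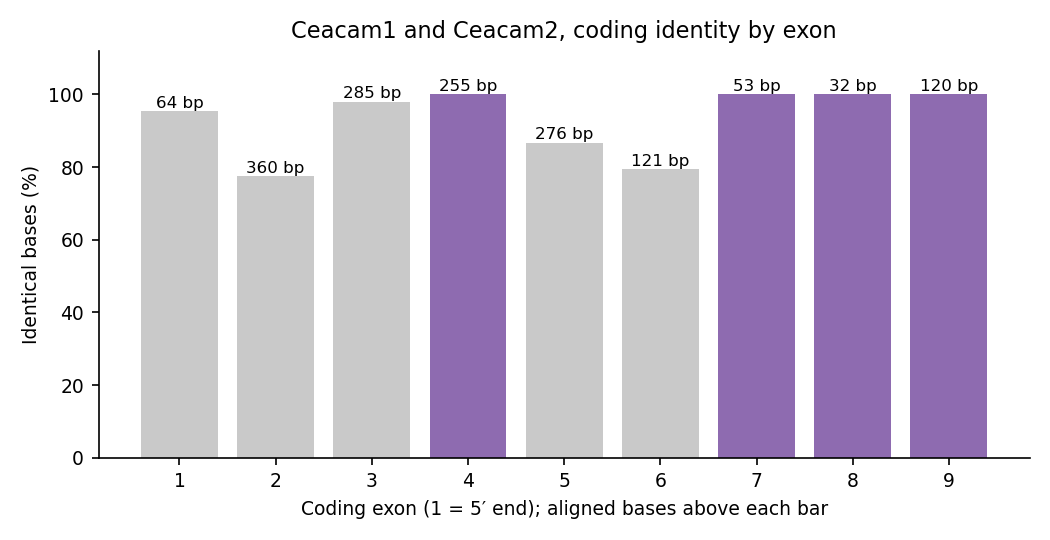
Percentage of identical coding bases (vertical axis) between Ceacam1-203 and Ceacam2-201 in each of the 9 exons, numbered from the 5′ end, with the aligned bases above each bar. Exons 4, 7, 8 and 9 (purple) were identical, and exon 2 had the lowest identity at 77.5%.

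Over all annotated transcripts, 914 of the 3936 different 150-base windows of Ceacam2 (23.2%) also occur in Ceacam1. In Ceacam2-201 such windows cover 907 of 2844 bases, of which 525 are coding and 382 lie in the 3′ untranslated region. Ceacam20 shared none of its 2766 windows of 150 bases with Ceacam1 or Ceacam2, and Ceacam10 and Ceacam18 shared none with any of the other listed Ceacam genes. Sequencing was paired-end with 150 bases a read. The windows stand for single reads, and whether the mate of a read lay in a stretch that differs was not examined. How reads with several places were counted is not given in the sources used here, so how many reads could have gone to either gene is unknown.

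In the crypts, Ceacam2 had 1540 and 7051 normalized counts in Ctrl replicates 1 and 2 and 1311 and 1222 in Gli1-PtgscKO replicates 1 and 2. Ctrl replicate 2 was high and the other 3 libraries lay close together, and the Ctrl mean was 4295 ± 3897 (SD, n = 2) beside 1267 ± 62.9 (SD, n = 2) for Gli1-PtgscKO. Ctrl replicate 2 stood 5.19-fold above the mean of the other 3 libraries. Both Gli1-PtgscKO libraries lay below both Ctrl libraries, as for 11.3% of all 11554 genes in the crypts. The log2 difference, Gli1-PtgscKO minus Ctrl, was -1.38 with a standard error (SE) of 0.64 on log2(value + 1). It was -0.28 without Ctrl replicate 2 and -2.48 without Ctrl replicate 1. This contrast chose the gene, so no test is given for it.

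Ceacam1 went the other way between the Ctrl crypts. It had 10816 and 5404 normalized counts in Ctrl replicates 1 and 2, 8110 ± 3827 (SD, n = 2), and 4332 and 9777 in Gli1-PtgscKO replicates 1 and 2, 7054 ± 3850 (SD, n = 2). Each genotype held 1 high and 1 low library and the groups overlapped. The log2 difference was -0.23 (SE 0.49), and it was -0.73 without Ctrl replicate 2 and 0.27 without Ctrl replicate 1.

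Whether Ceacam1 mirrors Ceacam2 was read library by library. From Ctrl replicate 1 to Ctrl replicate 2, Ceacam2 was higher by 5512 normalized counts and Ceacam1 lower by 5413. The sum of both genes was therefore 12356 and 12455, a difference of 0.80%, although Ceacam2 differed 4.58-fold and Ceacam1 2.0-fold. Of the reads on either gene, Ceacam2 held 12.5% in Ctrl replicate 1 (1643 of 13186 reads, exact 95% binomial interval 11.9% to 13.0%) and 56.6% in Ctrl replicate 2 (7833 of 13836 reads, 55.8% to 57.4%). The intervals cover counting error only. Had Ctrl replicate 2 held the share of replicate 1, Ceacam2 would have had 1724 reads there, and 6109 reads, 44.2% of the reads on both genes, lie above that.

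The Gli1-PtgscKO crypts did not show differences of matching size. Ceacam1 was 2.26-fold lower in replicate 1 than in replicate 2, while Ceacam2 was 1.07-fold higher, at 1311 against 1222. The sums were 5643 and 10999, 1.95-fold apart, and the Ceacam2 share was 23.2% (1250 of 5379 reads, interval 22.1% to 24.4%) and 11.1% (1094 of 9843 reads, 10.5% to 11.8%). The difference in Ceacam1 was thus far larger than that in Ceacam2. Counted as 1 gene, Ceacam1 and Ceacam2 had a log2 difference of -0.65 between the genotypes. Their libraries were ordered by genotype, with both Ctrl sums above both Gli1-PtgscKO sums, an order that 11.3% of all crypt genes had.

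**Figure D2:**
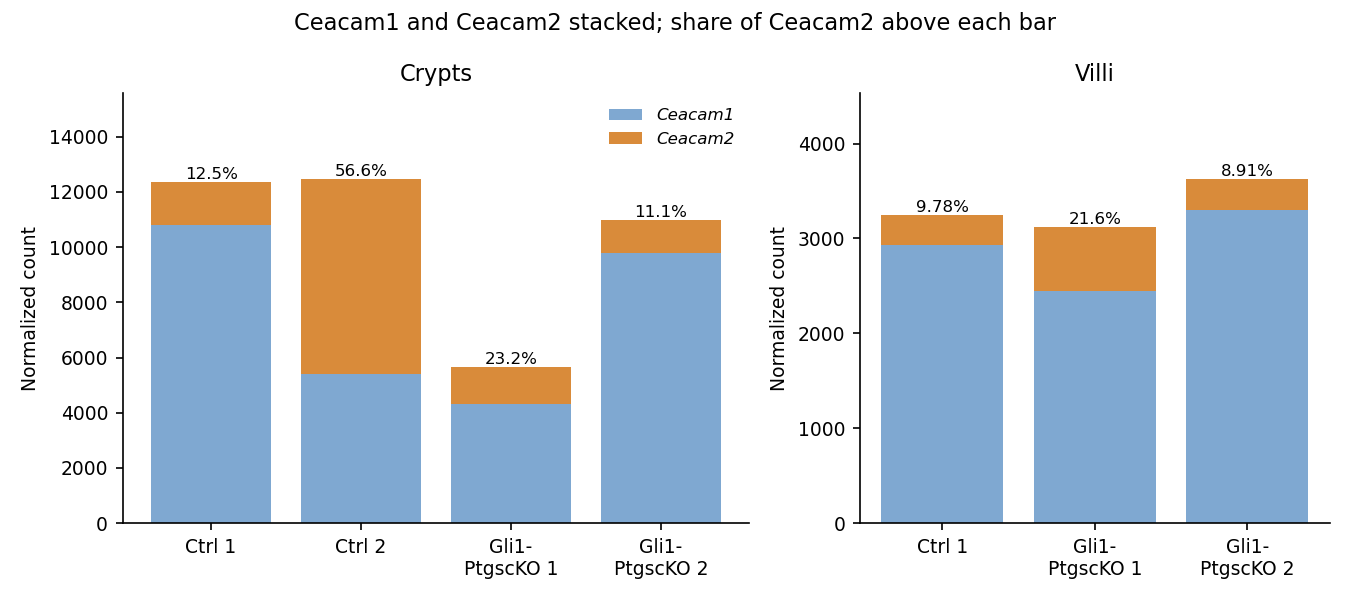
Normalized counts (vertical axes, from 0) of Ceacam1 (blue) with Ceacam2 (orange) stacked on it in each of 4 crypt and 3 villus libraries, with the percentage of both genes' reads on Ceacam2 above each bar. The Ctrl crypt bars reach 12356 and 12455 with shares of 12.5% and 56.6%, and Gli1-PtgscKO crypt replicate 1 reaches 5643.

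Among all 11554 crypt genes, Ceacam2 had the largest margin of Ctrl replicate 2 over each of the other 3 libraries, 2.19 on the log2 scale, with 1.29 for the next gene, and 5 genes had a margin of at least 2-fold. Ceacam2 was chosen for this high value, so its rank is a description. An absolute log2 difference between the Ctrl crypts as large as that of Ceacam1 (-1.0, replicate 2 minus replicate 1) was found in 4.29% of genes, and the median absolute difference was 0.194. Subtracting each library's dependence on transcript length left the order in place, with 10826 and 5321 length-corrected counts of Ceacam1 and 1555 and 7060 of Ceacam2 in the Ctrl crypts, and 4427 and 9702 of Ceacam1 in the Gli1-PtgscKO crypts.

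Summed mesenchymal markers were high and low in the crypts together with Ceacam1, and the sums of other marker lists were not. Mesenchymal markers (7 of 10 listed, none at 0) summed to 866.3 and 457.6 RPM in Ctrl replicates 1 and 2 and 488.1 and 743.1 in Gli1-PtgscKO replicates 1 and 2, high in the same 2 libraries as Ceacam1. All 7 were lower in Ctrl replicate 2 than in Ctrl replicate 1 and lower in Gli1-PtgscKO replicate 1 than in Gli1-PtgscKO replicate 2. Leukocyte markers (12 of 12 listed, none at 0) summed to 742.6, 300.0, 450.5 and 381.4 in the same order of libraries, a sum set mainly by Cd74 (10229 and 1929 normalized counts in Ctrl replicates 1 and 2), while 8 of the 12 were higher in Ctrl replicate 2 than in Ctrl replicate 1. Between the Gli1-PtgscKO crypts 11 of the 12 were higher in replicate 2 than in replicate 1, the direction of Ceacam1. The 2 of 8 endothelial markers that were listed summed to 19.3, 11.9, 14.5 and 11.2. Enterocyte markers summed to 5876, 8620, 5843 and 7376, opposite to Ceacam1 between the Ctrl crypts and alike between the Gli1-PtgscKO crypts. Stomach surface markers (6 of 7 listed) were higher in Gli1-PtgscKO, with sums of 1008, 1317, 4037 and 2601 in that order. In bulk libraries fewer cells of a type and less RNA per cell cannot be told apart, and the part of these cells in the Ceacam values was not tested.

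The genes around Ceacam1 and Ceacam2 did not share the Ceacam2 value of Ctrl replicate 2. Of 21 other listed genes within 500 kb, the log2 difference between the Ctrl crypts, replicate 2 minus replicate 1, had a median of 0.21. It was lowest for Axl, a receptor tyrosine kinase gene, at -1.68, and none of the 21 reached the 2.19 of Ceacam2. Ceacam2 was chosen for this high value, and only 0.389% of all crypt genes had an absolute difference that large. A set of 21 genes would seldom hold one. The genes nearest on each side of the pair, Lipe, which encodes hormone-sensitive lipase, and Erich4, had 546.3 and 612.1, and 193.0 and 251.2 normalized counts in Ctrl replicates 1 and 2. Tgfb1, which encodes the growth factor TGF-beta 1, had 157.4 and 80.1, lower in replicate 2 like Ceacam1 and Axl.

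Ceacam20 ranged less in the crypts, with 347.6 and 417.7 normalized counts in Ctrl replicates 1 and 2 and 238.2 and 429.1 in the Gli1-PtgscKO replicates. The genotypes overlapped, at 382.7 ± 49.5 (SD, n = 2) for Ctrl and 333.6 ± 135 (SD, n = 2) for Gli1-PtgscKO, and Gli1-PtgscKO replicate 1 was lowest. The log2 difference was -0.25 (SE 0.37). Ceacam18 had 225.8 and 322.3 in Ctrl and 221.4 and 252.5 in Gli1-PtgscKO crypts, which also overlap. Ceacam10, whose protein is secreted, had 213.6 and 62.1 in Ctrl and 245.5 and 129.6 in Gli1-PtgscKO crypts, so its Ctrl replicates differed 3.44-fold, with Ctrl replicate 2 low as for Ceacam1. Ceacam10 shared 21 windows of 75 bases with Ceacam1 and none with Ceacam2. The Ceacam10 log2 difference was 0.62, and -0.26 without Ctrl replicate 2.

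**Figure D3:**
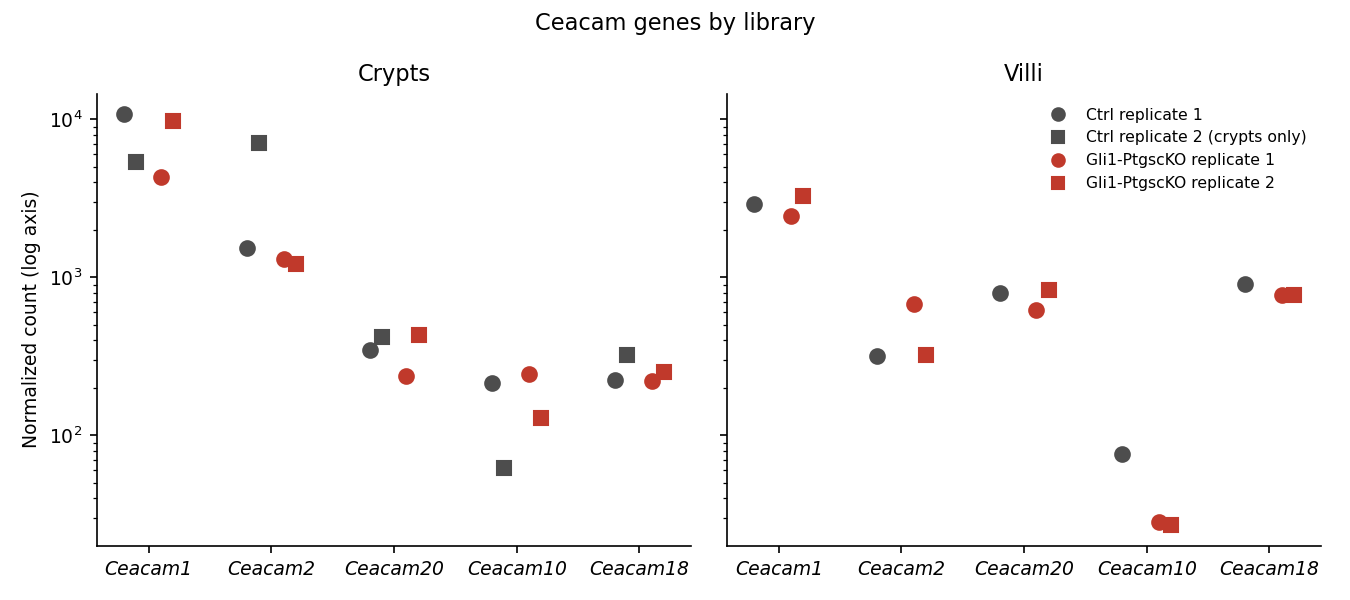
Normalized counts (vertical log axes) of the 5 listed Ceacam genes in the crypts (left) and villi (right), with 1 point per library, Ctrl in grey and Gli1-PtgscKO in red, replicate 1 as circles and replicate 2 as squares. Ceacam2 of Ctrl crypt replicate 2 stands at 7051 above the other 3 crypt libraries, and Ceacam10 is lower in both Gli1-PtgscKO villi.

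The villi, which were not used to choose the genes, were tested with limma-trend, 1 Ctrl library against 2 Gli1-PtgscKO libraries, with the lone Ctrl library assumed to vary like the Gli1-PtgscKO pair. None of the 3 members passed, where 34.8% of 12701 genes had an adjusted p under 0.05, 17.4% higher and 17.4% lower. By limma-trend, edgeR and DESeq2 alike, 0 of the 3 had even an unadjusted p under 0.05. Scaling the villi by library size alone moved the median log2 difference of all genes from -0.01 to 0.42, so the values below are relative to the deposited size factors.

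Ceacam1 had 2927 normalized counts in the Ctrl villi and 2449 and 3299 in the Gli1-PtgscKO villi, which lie on both sides of it. The log2 difference was -0.04 (95% interval -0.57 to 0.48, limma-trend adjusted p = 0.891). Ceacam2 had 317.4 in Ctrl and 676.6 and 322.6 in Gli1-PtgscKO villi, with replicate 1 high and replicate 2 close to Ctrl, and both above Ctrl, as for 43.7% of all villus genes. Its log2 difference was 0.56 (interval -0.46 to 1.57, adjusted p = 0.329), and it was 0.02 without Gli1-PtgscKO replicate 1. With library size alone it was 0.99 and the adjusted p 0.0102, above the shift of all genes by 0.42. Ceacam20 had 797.0 in Ctrl and 625.4 and 830.6 in Gli1-PtgscKO villi, which overlap, a log2 difference of -0.14 (interval -0.66 to 0.37, adjusted p = 0.617). These intervals do not show that the genotypes are alike.

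Ceacam2 held 9.78% of both genes' reads in Ctrl (274 of 2801 reads, exact interval 8.71% to 10.9%), 21.6% in Gli1-PtgscKO replicate 1 (885 of 4088, 20.4% to 22.9%) and 8.91% in replicate 2 (334 of 3750, 8.01% to 9.86%). Between the Gli1-PtgscKO replicates Ceacam2 differed by 354.0 normalized counts and Ceacam1 by 850.5 in the opposite direction. The sums were 3245 in Ctrl and 3126 and 3622 in Gli1-PtgscKO villi, at most 1.16-fold apart. In RPM, without the size factors, they were 192.7, 260.5 and 279.3, up to 1.45-fold apart, and Ctrl had the least Ceacam1, whereas the Ctrl crypt sums were 674.5 and 656.0 RPM, 1.03-fold apart. Counted as 1 gene, the pair had a log2 difference of 0.052 (limma-trend adjusted p = 0.826).

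Of the other listed Ceacam genes, Ceacam10 was lower in the Gli1-PtgscKO villi, at 28.3 and 27.0 normalized counts against 76.5 in Ctrl (37, 28 and 66 reads), and 44.2% of all villus genes had both Gli1-PtgscKO libraries below Ctrl. Its log2 difference was -1.43 (interval -2.25 to -0.62, limma-trend adjusted p = 0.0225). The call was lost with length correction (-0.75, adjusted p = 0.162), with DESeq2 (adjusted p = 0.141) and with library size alone (adjusted p = 0.0513). The summed level of the 12 leukocyte markers, none at 0, was 1666 RPM in Ctrl and 768.9 and 787.1 in Gli1-PtgscKO villi. Of the 12, 7 fell and 1 rose at a limma-trend adjusted p under 0.05, beside 17.4% of all villus genes in each direction. Cd74 and the immunoglobulin gene Igkc were among those that fell. The general leukocyte gene Ptprc rose, with 200.4 normalized counts in Ctrl and 607.8 and 722.5 in Gli1-PtgscKO villi (log2 difference 1.72, limma-trend adjusted p = 0.00736). Cd3e (-0.01), Cd3g (-0.35), Cd8a (-0.01) and Itgae (0.24) had no call. The part of these cells in the Ceacam10 value was not tested. Ceacam18 had 902.4 in Ctrl and 775.3 and 771.7 in Gli1-PtgscKO villi, a log2 difference of -0.22 (adjusted p = 0.289).

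Across tissues only levels are given, since the tables were normalized separately. In RPM over the 11227 genes listed in both tables, Ceacam1 had 211.6 to 590.4 in the crypts and 173.8 to 254.4 in the villi, which overlap. Ceacam2 had 64.1 to 371.4 in the crypts and 18.8 to 56.4 in the villi, with every crypt library above every villus library and a ratio of the means of 4.38, which was 2.13 without Ctrl crypt replicate 2 and 6.68 without Gli1-PtgscKO villus replicate 1. Ceacam20 was higher in the villi, at 47.3 to 64.1 against 11.6 to 22.8 in the crypts, a ratio of the means of 2.89. Ceacam18 also had more in the villi, at 53.6 to 64.6 against 10.8 to 17.0. Per kilobase of longest annotated transcript, Ceacam1 was above Ceacam2 in all libraries but Ctrl crypt replicate 2, where the ratio of their levels was 0.658, and its highest value was 6.87 in the crypts. In the villi that ratio was 3.11 to 8.78, and Ceacam1 stood 2.90- to 3.14-fold above Ceacam20, against 10.2- to 24.6-fold in the crypts.

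Genes that act with CEACAM1 or CEACAM20 were read from a list of 21, all listed in both tables. In the crypts 0 of the 21 had an adjusted p under 0.05, and 0 an unadjusted p under 0.05, by limma-trend, edgeR and DESeq2. By the same tools 0, 0 and 11 of all 11554 crypt genes had the former, and 73, 108 and 227 the latter. The median log2 difference of the 21 was -0.03 beside -0.01 for all genes. Without Gli1-PtgscKO replicate 2, 1 of them was higher and 3 lower at an adjusted p under 0.05, where 17.2% of all crypt genes were called. In the villi 2 rose and 1 fell by limma-trend at an adjusted p under 0.05, with a median of -0.24 beside -0.01 for all genes, of which 17.4% rose and 17.4% fell. Under library size alone 6 rose and 0 fell, where 4605 of all 12701 villus genes rose and 946 fell. Insr, the insulin receptor, whose signalling CEACAM1 takes part in, had 234.0 normalized counts in Ctrl and 595.6 and 530.3 in Gli1-PtgscKO villi, a log2 difference of 1.26 (SE 0.17, limma-trend adjusted p = 0.00775). With length correction it was 0.33 and the adjusted p 0.193. Fyn, a Src family kinase, had 114.7 in Ctrl and 237.8 and 241.5 in Gli1-PtgscKO villi, a log2 difference of 1.06 (SE 0.19, limma-trend adjusted p = 0.0116). Fyn also passed by edgeR and DESeq2, with length correction and with library size alone. Calm3, one of the calmodulin genes, whose product binds the CEACAM1 tail, had 10281 in Ctrl and 5514 and 6015 in Gli1-PtgscKO villi, -0.84 (SE 0.17, limma-trend adjusted p = 0.0148). The Calm3 call was lost with length correction (adjusted p = 0.0555) and library size alone (adjusted p = 0.0982).

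Ptprh, the microvillus phosphatase that acts on CEACAM20, and Syk were looked at for that link, with their values already known. In the villi Ptprh had a log2 difference of 0.29 (limma-trend adjusted p = 0.359) and Syk of -0.12 (limma-trend adjusted p = 0.695). In the crypts their log2 differences were 0.03 and -0.04.

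CEACAM20 is a protein of the microvillus, so genes of microvillus adhesion and of its actin core were read as a list of 16. None of the 15 listed in the crypts had an adjusted or an unadjusted p under 0.05 by limma-trend, edgeR or DESeq2. Among all 11554 crypt genes, 0, 0 and 11 had an adjusted and 73, 108 and 227 an unadjusted p under 0.05 by these tools. In the villi all 16 were listed, and 6 fell and 0 rose by limma-trend at an adjusted p under 0.05, with a median log2 difference of -0.49 beside -0.01 for all genes, of which 17.4% fell and 17.4% rose. In RPM, without the size factors, where all genes shifted by 0.42 on the log2 scale, summed markers of crypt cells were higher in the same villi. Stem cell sums were 181.3 in Ctrl and 426.6 and 321.1 in Gli1-PtgscKO, and Paneth cell sums were 433.4, 867.4 and 541.9. On normalized counts the median log2 differences of these lists were 0.56 and 0.31. Ascl2 (-0.20), Smoc2 (-0.52), Defa17 (-0.07) and Defa24 (-0.01) were below 0 and the other listed markers above it. Enterocyte sums in the same villi were 31917.5 RPM in Ctrl and 37572.6 and 29996.8 in Gli1-PtgscKO, on both sides of Ctrl. The median log2 difference of the enterocyte markers on normalized counts was -0.11. The part of these cell types was not tested. Espn, which encodes the actin bundler espin, fell most, from 7913 normalized counts in Ctrl to 2703 and 3206 in Gli1-PtgscKO villi, a log2 difference of -1.43 (SE 0.18, limma-trend adjusted p = 0.00749). Ush1c, the scaffold of the intermicrovillar links, and Calml4, a light chain of the motor that holds it, fell, with log2 differences of -0.92 and -1.04. Espn, Ush1c and Calml4 also passed by edgeR and DESeq2, with length correction and with library size alone. Slc9a3r1, which encodes the ezrin-binding scaffold EBP50, fell as well (-1.04), as did the link cadherin Cdhr5 (-0.65) and Actn4, an alpha-actinin gene (-0.58). With length correction the adjusted p was 0.0559 for Slc9a3r1 and 0.104 for Cdhr5, and with library size alone Cdhr5 and Actn4 were no longer called (adjusted p = 0.402 and 0.574). Under library size alone 3 genes of the list rose and 4 fell, relative to the shift of all genes by 0.42, and 4605 of all 12701 genes rose and 946 fell. Of the most abundant genes that did not pass, Vil1 had a log2 difference of -0.58, Ezr of -0.59, Myo1a of -0.39, Cdhr2 of -0.13 and Pls1 of 0.11. Ceacam20, at -0.14, was not among the genes that fell.

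**Figure D4:**
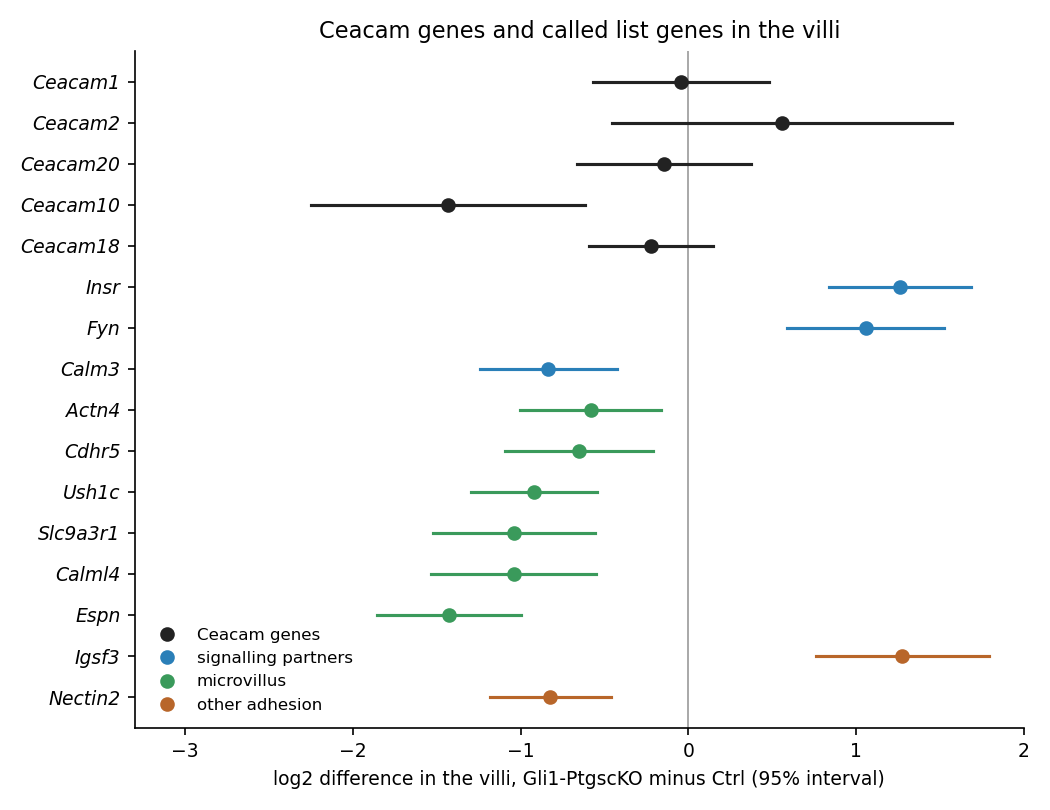
log2 difference in the villi, Gli1-PtgscKO minus Ctrl (horizontal axis), with 95% limma-trend intervals, for the 5 Ceacam genes (black) and the listed partner (blue), microvillus (green) and other adhesion genes (brown) with an adjusted p under 0.05. The intervals of Ceacam1, Ceacam2, Ceacam20 and Ceacam18 cross 0, that of Ceacam10 runs from -2.25 to -0.62, and Espn stands at -1.43.

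Other immunoglobulin superfamily and epithelial adhesion genes made another list of 26. Of the 20 listed in the crypts, 0 had an adjusted p under 0.05 by limma-trend and by edgeR and 1 by DESeq2, beside 0, 0 and 11 of all crypt genes. By limma-trend 2 of the 20 had an unadjusted p under 0.05, beside 73 of all crypt genes. Both also passed the study's threshold (unadjusted p under 0.01 and absolute log2 difference over 1), which 0.182% of 11554 crypt genes passed and 0.173% in the higher direction. With edgeR, length correction, library size alone or the filter of 10 reads, and without Ctrl replicate 1, Ctrl replicate 2 or Gli1-PtgscKO replicate 1, 1 of them passed it. Without Gli1-PtgscKO replicate 2, 3 of the list passed it, and 4 were higher and 1 lower at an adjusted p under 0.05, where 17.2% of all crypt genes were called. Vsig2 had 126.5 and 144.9 normalized counts in Ctrl and 687.2 and 331.9 in Gli1-PtgscKO crypts, and Vsig1, a junction gene of stomach epithelium, 339.2 and 472.6 against 829.9 and 795.6. In both genes the Gli1-PtgscKO libraries lay above both Ctrl libraries, as for 9.73% of all crypt genes. So did the summed stomach surface markers given above, whose part was not tested. In the villi 21 were listed, 1 rose and 1 fell at an adjusted p under 0.05, beside 34.8% of all genes called. With library size alone 7 rose and 0 fell, where 4605 of all 12701 villus genes rose and 946 fell. Igsf3 had 168.0 in Ctrl and 460.3 and 362.2 in Gli1-PtgscKO villi, a log2 difference of 1.28 (limma-trend adjusted p = 0.00973), which was 0.54 with length correction (adjusted p = 0.102). Nectin2, which encodes a junctional adhesion protein, had 2371 in Ctrl and 1343 and 1335, a log2 difference of -0.82 (limma-trend adjusted p = 0.0114), which library size alone moved to -0.39 (adjusted p = 0.117). Abundant members without a call were Pigr at -0.14, Cdh17 at -0.02, Epcam at 0.54, Cdh1 at 0.37 and Gpa33 at -0.26.

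In the villi 11 of 26 other genes within 500 kb of Ceacam1 or Ceacam2 fell and 0 rose at an adjusted p under 0.05, beside 17.4% of all genes in each direction. By DESeq2 7 fell, where 1474 of all 12701 villus genes fell and 1157 rose. Under library size alone 3 rose and 4 fell, where 4605 of all genes rose and 946 fell. Within 500 kb of Ceacam20, 10 of 17 genes fell and 2 rose, and under library size alone 4 fell and 3 rose. With length correction 4 fell and 1 rose, where 1272 of all 12692 genes fell and 1155 rose. In the crypts 0 of the 21 and 0 of the 17 genes had an adjusted p under 0.05 by limma-trend, edgeR and DESeq2, with 0 and 1 at an unadjusted p under 0.05. Over all 11554 crypt genes these tools gave 0, 0 and 11 at the adjusted and 73, 108 and 227 at the unadjusted p. Without Gli1-PtgscKO crypt replicate 2, 5 of each set were called, beside 17.2% of all crypt genes. Nlrp9b, whose annotated start lies beside the end of Ceacam20, was the one that rose most, from 62.6 normalized counts in Ctrl to 253.1 and 398.9 in Gli1-PtgscKO villi (log2 difference 2.33, limma-trend adjusted p = 0.0075). Nlrp9b also passed by edgeR and DESeq2, with length correction and with library size alone. Igsf23, the listed gene before Ceacam20, had 3398 in Ctrl and 2051 and 2161 in Gli1-PtgscKO villi, -0.69 (limma-trend adjusted p = 0.0189), which was -0.30 with length correction (adjusted p = 0.187). Ceacam20 between them had no call.

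The genes whose pattern over the 7 libraries was most like each member were found as the smallest root mean square (RMS) difference of log2(value + 1) centred within each table, over the 11227 shared genes. For Ceacam1, whose own pattern had an RMS of 0.437, they were Gm45330, Mllt11, Scrn1, Dusp8 and Bgn, at 0.0746 to 0.168. Gm45330, a long noncoding RNA gene of chromosome 17, followed it with 77.8, 36.0, 32.5 and 68.2 normalized counts in Ctrl crypt replicates 1 and 2 and Gli1-PtgscKO crypt replicates 1 and 2, and Bgn, which encodes the matrix proteoglycan biglycan, had 413.2, 285.4, 186.7 and 469.3 in the same order. For Ceacam20 they were Myo5b, Lcp1, Arhgef5, Pml and Fgr, at 0.0539 to 0.076 beside an RMS of 0.281 of its own. Myo5b, a motor of apical membrane traffic, had 3083 and 4108 in Ctrl and 2228 and 4004 in Gli1-PtgscKO crypts. Ceacam2 had no close match, which is a description, since the distances include the Ctrl crypt values for which it was chosen. Its nearest genes, Slc47a1, Zfp712, Slc5a4a, Syt13 and Xpnpep2, stood at 0.537 to 0.549 beside its own 0.853, and Ceacam1 ranked 10093rd at 1.11.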

How the data were processed

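The authors aligned reads to mm10 with STAR and compared the genotypes with DESeq2. The deposited tables hold a signal, each gene's count over the DESeq2 size factor of the library, beside the authors' own fold changes and p-values, which were not used here. The counting program, strand setting and annotation are not given in the sources used here, so genes that share sequence or overlap are uncertain. Nothing says whether replicates are separate mice, so p-values measure the spread between these libraries. The step between low values gave back whole reads for 100% of values.

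Each tissue was fitted with limma-trend, from limma 3.58.1 under R 4.3.3, without a block. The input was log2(value + 1), and genes needed a mean value of 1. All 11554 crypt and 12701 villus genes met this, so the alternative without a filter repeats the main fit. Counting Ceacam1 and Ceacam2 as 1 gene leaves the log2 differences of all other genes unchanged. Genes were called at the study's threshold and at a Benjamini-Hochberg adjusted p under 0.05 over all genes. In the villi this was 1 library against 2. Alternatives were a pseudocount of 0.1, no filter, at least 10 reads per library, library size alone, edgeR 4.0.16 and DESeq2 1.42.0 on recovered reads, a lowess correction (span 0.3) for transcript length, Ceacam1 and Ceacam2 as 1 gene, the replicate number as a block (crypts) and each library left out. Transcripts were those of GENCODE M21 (GRCm38), with 11546 crypt and 12692 villus genes matched by identifier. Sequences come from its transcript file, and exons were aligned with Biopython 1.88. Figures were drawn with matplotlib 3.10.9.

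In simulated counts for 11554 crypt genes with 200 genes changed by 2 on the log2 scale, at the dispersion of the crypts (0.0814), limma-trend called 91% of them. In the villus design (12701 genes, dispersion 0.0209) it called 91%. False calls numbered 6 and 2. The simulation gave all genes the same dispersion. In the real crypts the median absolute log2 difference between replicates was 0.497 in Gli1-PtgscKO and 0.194 in Ctrl, and 0 genes had an adjusted call. These shares therefore do not say how often the real fits would find a change, or a smaller one.

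The members and the gene lists were chosen with earlier results of these data known. Named genes are the listed Ceacam genes, list genes past a threshold with up to 6 further abundant examples per list, genes within 500 kb, Ptgs1, Ptgs2 and Gli1, and the 5 genes most like each member. Of the marker lists not described with the results, Paneth cell markers summed to 20744 to 35859 RPM in the crypts and 433.4 to 867.4 in the villi, goblet cell markers to 4806 to 5914 and 5069 to 7041, enteroendocrine markers to 350.1 to 509.1 and 1100 to 1494, and tuft cell markers (4 of 6 listed) to 33.7 to 67.2 and 23.9 to 63.4. The result for 1 gene is not reported here.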

Additional observations from a re-analysis of the deposited data

Results flagged for a closer look

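The log2 differences of Ceacam2 had opposite signs in the tissues, and neither is a call (limma-trend adjusted p = 0.329 in the villi, no test in the crypts). In the crypts both Gli1-PtgscKO libraries lay below both Ctrl libraries, with a log2 difference of -1.38, and in the villi both lay above the Ctrl library, with a log2 difference of 0.56. The difference between the tissues was not tested, because the tables were normalized separately and the villi hold 1 distinct Ctrl library. Each value rested on 1 library. Without Ctrl crypt replicate 2 the crypt difference was -0.28, and without Gli1-PtgscKO villus replicate 1 the villus difference was 0.02. In the villi 43.7% of all genes had both Gli1-PtgscKO libraries above Ctrl, and in the crypts 11.3% had both below.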

How the results depend on the processing

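In the villi the 3 members were tested under 8 alternatives each, and 20 of these 24 values kept their direction and their side of the threshold. Part of this agreement was fixed in advance. The alternative without a filter removed and added no gene, and counting Ceacam1 and Ceacam2 as 1 gene does not touch Ceacam20. Library size alone shifted all genes by 0.42. With it Ceacam1 was at 0.39 (limma-trend adjusted p = 0.124), Ceacam20 at 0.29 (0.297) and Ceacam18 at 0.21 (0.441), below that shift, and Ceacam2 at 0.99 (0.0102), above it. Counted with Ceacam2, Ceacam1 was at 0.052, and with length correction Ceacam18 was at 0.15. In the crypts the members' log2 differences moved by less than the spread between replicates under the other settings. For Ceacam2 that spread includes the high Ctrl replicate 2, so the comparison is a weak one. Its -1.38 became -1.75 by edgeR and -0.65 when counted as 1 gene with Ceacam1, and both lay within the spread. Leaving out 1 library gave -2.48 to -0.28 for Ceacam2, -0.82 to 0.35 for Ceacam1 and -0.68 to 0.17 for Ceacam20 in the crypts, and 0.02 to 1.09, -0.26 to 0.17 and -0.35 to 0.06 in the villi, where such a fit has no test.

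Crypt calls at the study's threshold numbered 21, and 65 by DESeq2, and at an adjusted p under 0.05 they numbered 0 (73 genes at an unadjusted p under 0.05), 0 by edgeR and 11 by DESeq2. With the replicate number as a block they numbered 78 and 34. Same-numbered crypt libraries deviated with a correlation of 0.247, over only 2 pairs, and nothing says that they share a litter or a day. Without 1 library in turn the counts ran from 18 to 881 and from 0 to 1987, the highest without Gli1-PtgscKO replicate 2, and without Ctrl replicate 2 there were 4 adjusted calls. In the villi, the 2097 calls at the study's threshold were 1092 with length correction, and the 4424 adjusted calls were 2427 with length correction and 2631 by DESeq2. Of the adjusted calls 2209 were higher and 2215 lower, and 4605 and 946 with library size alone. With mean in place of longest transcript lengths, Ceacam1 stood 3.63-fold above Ceacam20 in the median villus library, against 3.09. Chosen after seeing the data, library size alone put the villus sums of Ceacam1 and Ceacam2 up to 1.45-fold apart, against 1.16-fold, and leaving out each library gave crypt to villus ratios of 2.13 to 6.68 for Ceacam2, 1.61 to 2.21 for Ceacam1 and 0.322 to 0.390 for Ceacam20. With windows of 100 bases Ceacam2 shared 32.9% with Ceacam1. The causes were not tested. A lone Ctrl villus library limits every villus test, and no villus fit with a block was possible.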
